A study of Mus musculus with 6 samples.

Results

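The miR-200 family is a group of epithelial microRNAs (miRNAs) made from 5 hairpins in 2 gene clusters. The 7 members described here are mmu-miR-200a-3p, mmu-miR-200a-5p, mmu-miR-200b-3p, mmu-miR-200b-5p and mmu-miR-429-3p of the first cluster and mmu-miR-200c-3p and mmu-miR-141-3p of the second, named below without the prefix for mouse. They were chosen by name and not by a rule on their values, although earlier results of these data were known. All 7 are listed among the 1546 mature mouse miRNAs of a small RNA sequencing table. The table covers 6 liver libraries of male C57BL/6 mice, each called a liver below, 3 from mice on a normal diet (NC) and 3 from mice on a high-fat diet to give metabolic dysfunction-associated fatty liver disease (MAFLD). The mice were 8 weeks old at the start and stayed on their diet for 16 weeks, and no transgene, knockout or drug was used in either group. The study fed more mice per diet than were sequenced, the composition of the high-fat diet is not given in the sources used here, and no fat content is given for the sequenced livers.

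A miRNA guides the silencing machinery to messenger RNAs that pair with its seed, the stretch from base 2 to base 8 of the mature strand. The miR-200 family is known as a guardian of the epithelial state. Its best described targets are the messenger RNAs of Zeb1 and Zeb2, repressors of E-cadherin, and these repressors in turn hold down the transcription of the miR-200 genes. In the liver the family is known mainly from the bile duct epithelium, while hepatocytes, which make up most of the tissue, are marked by miR-122.

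The sequences are shown because the seeds part the family in a way that the gene clusters do not. They come from RefSeq (GRCm38.p6), in which all 7 members were found, and are written 5′ to 3′ with the seed in capitals.
miR-200b-3p: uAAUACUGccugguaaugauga
miR-429-3p: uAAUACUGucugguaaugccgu
miR-200c-3p: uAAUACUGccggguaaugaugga
miR-200a-3p: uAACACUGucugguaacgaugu
miR-141-3p: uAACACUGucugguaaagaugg
miR-200a-5p: cAUCUUACcggacagugcugga
miR-200b-5p: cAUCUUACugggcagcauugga

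The first 3 sequences share the seed AAUACUG and the next 2 share AACACUG, so that each cluster gives products with each of these seeds. The seeds differ at position 4 of the mature strand, counted from 1 at the 5′ end (U4C from miR-200b-3p to miR-141-3p). No other mature mouse miRNA of the 1679 in the RefSeq table has either of the 2 seeds. The 5p strands of miR-200a and miR-200b share the seed AUCUUAC with each other and with no other miRNA of that table.

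Across the clusters the strands are close to each other. Over their first 22 bases, miR-200b-3p and miR-200c-3p differ by 2 substitutions (U11G and A22G), and miR-200a-3p and miR-141-3p also differ by 2 (C17A and U22G). The other pairs of 3p strands differ by 4 or 5. How many mismatches were allowed when reads were assigned is not given in the sources used here, so the split between miR-200b-3p and miR-200c-3p and between miR-200a-3p and miR-141-3p is less certain than the split between other members.

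The first cluster lies on the minus strand of chromosome 4 in GRCm38 and spans 1846 bases. Mir200b (ENSMUSG00000065549.3) is at chr4:156055681-156055750, Mir200a (ENSMUSG00000065400.1) at chr4:156054896-156054985 and Mir429 (ENSMUSG00000065427.1) at chr4:156053905-156053987. In GENCODE M21 all 3 hairpins lie in introns of transcripts of Ttll10, a protein-coding gene on the same strand. Mir200b and Mir200a also lie in an intron of the non-coding transcript Gm13648, and Mir429 overlaps an exon of it. The second cluster spans 477 bases on the minus strand of chromosome 6, with Mir200c (ENSMUSG00000065462.3) at chr6:124718322-124718390 and Mir141 (ENSMUSG00000065474.1) at chr6:124717914-124717985. Both of its hairpins lie in an intron of the non-coding gene Gm15884, and Mir141 overlaps an exon of Gm29008, a transcript still to be tested by experiment. The nearest protein-coding gene, Phb2, is on the opposite strand, 964 bases from Mir141.

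The values are the reads of a miRNA scaled to a fixed total of reads on all miRNAs of the library (CPM), and the reads behind them were recovered from the steps of the values. The libraries held between 1336935 and 4685712 reads on miRNAs, which puts a level of 3 reads between 0.640 and 2.24 CPM. Hepatocyte miR-122-5p stood between 42159 and 85150 CPM, as a liver label asks, and miR-148a-3p took between 46.8% and 71.4% of the reads of a library, a share that lowers the CPM of all other miRNAs where it is high. Several libraries stood apart. MiR-9-5p, a miRNA of neurons, was at 344 CPM in NC replicate 1, at 530 CPM in NC replicate 2 and at most at 12.4 CPM in the other 4 livers, and NC replicate 3 stood apart in the miR-200 family itself, as described next. Results are therefore given with and without these libraries. The labels number the replicates but do not state that each came from a mouse of its own, so the p-values measure the spread between these libraries, which may in part be technical.

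MiR-200a-3p was the most abundant member in every liver. The NC livers gave 107, 98.8 and 571 CPM and the MAFLD livers 144, 200 and 244 CPM, here and below in the order of replicates 1, 2 and 3. NC replicate 3 was thus the highest of the 6 livers by far, at 2.34 times the next highest, and the other 2 NC livers were the lowest. The 95% Wilson interval of NC replicate 3 ran from 532 to 613 CPM and that of MAFLD replicate 3 from 220 to 270 CPM, so counting error alone does not cover the gap (PCR copies are not independent molecules, and these intervals cover counting error only). With a mean of 228 CPM over all livers, miR-200a-3p was in position 70 of the 1546 listed miRNAs.

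MiR-200b-3p, which carries the other main seed, was the second member in every liver. The NC livers gave 78.4, 73.3 and 234 CPM and the MAFLD livers 85.2, 141.1 and 136 CPM. NC replicate 3 was again the highest, NC replicates 1 and 2 were again the lowest, and the groups overlapped. The third product of this cluster, miR-429-3p, was much scarcer, with 9.41, 12.1 and 33.7 CPM among the NC livers and 7.13, 16.01 and 17.6 CPM among the MAFLD livers. Here the lowest liver was MAFLD replicate 1, with 19 reads, and NC replicate 3, with 45 reads, was the highest.

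The second cluster was read far less. MiR-200c-3p gave 5.49, 7.65 and 20.9 CPM among the NC livers and 9.004, 10.03 and 31.3 CPM among the MAFLD livers. The highest liver was MAFLD replicate 3 and not NC replicate 3, although the counting intervals of these 2 livers overlapped (23.6 to 41.5 CPM against 14.5 to 30.3 CPM). Its neighbour miR-141-3p was read between 6 and 14 times per library, with 5.10, 3.82 and 6.73 CPM under the normal diet and 3.75, 2.56 and 9.12 CPM under the high-fat diet. The intervals of NC replicate 3 (3.54 to 12.8 CPM) and NC replicate 1 (2.98 to 8.72 CPM) overlapped almost wholly, so a step of NC replicate 3 above the other NC livers was not detectable for miR-141-3p at this depth.

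**Figure D1:**
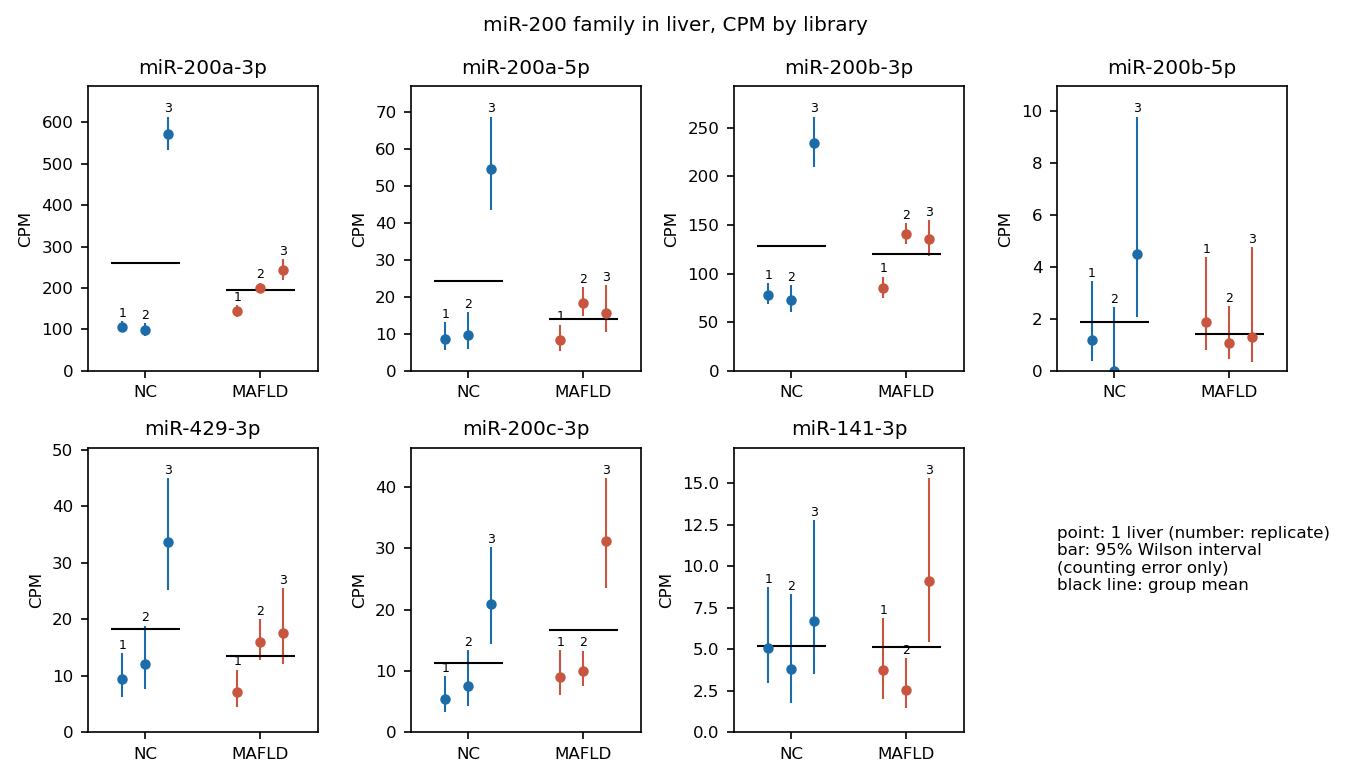
CPM (linear axis from 0) of each of the 7 members in the 3 NC and 3 MAFLD livers; each point is 1 liver with its replicate number, vertical bars are 95% Wilson intervals of counting error, and black lines are group means. NC replicate 3 is the highest liver for 5 of the 7 members, and MAFLD replicate 3 for miR-200c-3p and miR-141-3p.

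Of the strands on the 5′ side of the hairpins, which are mostly discarded when the miRNA is loaded, miR-200a-5p followed its partner. The NC livers gave 8.63, 9.56 and 54.6 CPM and the MAFLD livers 8.25, 18.4 and 15.6 CPM. It made up 8.72% of the reads of both miR-200a strands in NC replicate 3 (Wilson interval 6.99% to 10.8%) and between 5.41% and 8.82% in the other livers, with intervals that overlapped throughout. Overlap of separate intervals does not exclude a difference, and the balance of the 2 strands was not tested. MiR-200b-5p was at the edge of detection, with 3, 0 and 6 reads in NC livers and 5, 5 and 2 reads in MAFLD livers. Its 0 of 1569367 reads in NC replicate 2 allows a level of up to 1.91 CPM at 3 reads, and its 95% Wilson interval reaches 2.45 CPM. Of the remaining strands of these hairpins miR-141-5p is listed, with 0, 0 and 1 reads in NC livers and 2, 0 and 5 reads in MAFLD livers, which is too few to be tested. MiR-429-5p and miR-200c-5p are not listed under these names.

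Summed over the 7 members, the family reached 215, 205 and 926 CPM under the normal diet and 260, 389 and 454 CPM under the high-fat diet. All MAFLD livers lay between NC replicates 1 and 2 on the one side and NC replicate 3 on the other. The sum rests on 322 to 1822 reads per library. In a whole liver, fewer cells of a type and less RNA per cell cannot be told apart.

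The chromosome 4 cluster gave nearly all of this sum. It summed to between 194 and 898 CPM, against 10.6 to 40.4 CPM for miR-200c-3p and miR-141-3p together. The ratio of the 2 clusters was 19.3, 16.9 and 32.5 in NC livers and 19.4, 29.9 and 10.2 in MAFLD livers, so the groups overlapped. The lowest ratio belonged to MAFLD replicate 3, where miR-200c-3p took 18.8% of the reads of miR-200b-3p and miR-200c-3p (Wilson interval 14.4% to 24.0%), against 6.54% to 9.56% in the other 5 livers, of which NC replicate 2 had an interval reaching 15.8%.

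The balance of the 2 main seeds moved less than the level. The seed AACACUG (miR-200a-3p and miR-141-3p) held 54.6%, 52.4% and 66.7% of the summed CPM of the 3p strands in NC livers and 59.4%, 54.8% and 57.8% in MAFLD livers. NC replicate 3 was the highest here too. Within the cluster, miR-200a-3p made up 70.9% of the reads of miR-200a-3p and miR-200b-3p in that liver (Wilson interval 68.2% to 73.6%), and the next highest was MAFLD replicate 3 with 64.3% (60.3% to 68.0%). The excess in NC replicate 3 was thus larger for miR-200a-3p than for miR-200b-3p. The share of miR-429-3p in the reads of miR-429-3p and miR-200b-3p, between 7.72% and 14.2%, had intervals that overlapped in all livers.

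**Figure D2:**
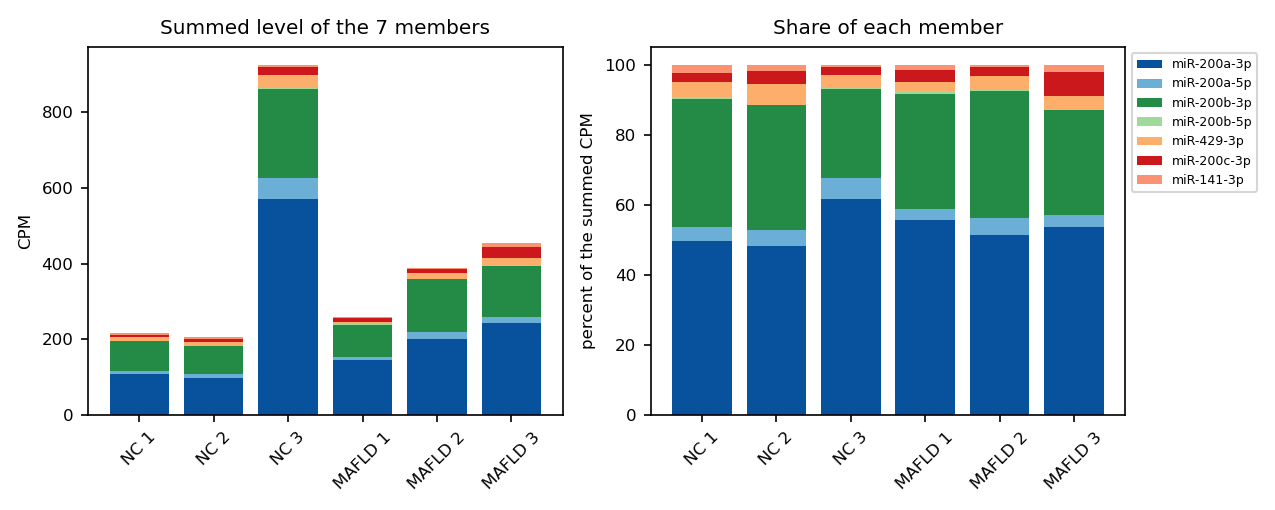
Stacked bars of the 7 members in each of the 6 livers, as CPM (left) and as percent of the summed CPM of the family (right). NC replicate 3 reaches 926 CPM while the other livers lie between 205 and 454 CPM, and miR-200a-3p and miR-200b-3p make up most of every bar.

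How far NC replicate 3 stood above the rest was set against all miRNAs tested, those whose mean reached 1 CPM over the 6 livers, which are 501 and hold all 7 members. This description was chosen after the values were seen and carries no test. NC replicate 3 was the highest liver for 22.2% of the miRNAs tested and for 5 of the 7 members. These 5 are the members of the chromosome 4 cluster, with both strands of miR-200a and of miR-200b, and are not separate observations. On the log2(CPM + 1) scale its difference from the median of the other 5 livers was 2.40 for miR-200a-5p and 1.98 for miR-200a-3p, in positions 5 and 10 of 501. It was 1.45 for miR-200b-3p, 1.40 for miR-429-3p, 1.33 for miR-200b-5p, 1.13 for miR-200c-3p and 0.68 for miR-141-3p. The median of these differences was 1.40 over the members and 0.27 over all miRNAs tested.

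**Figure D3:**
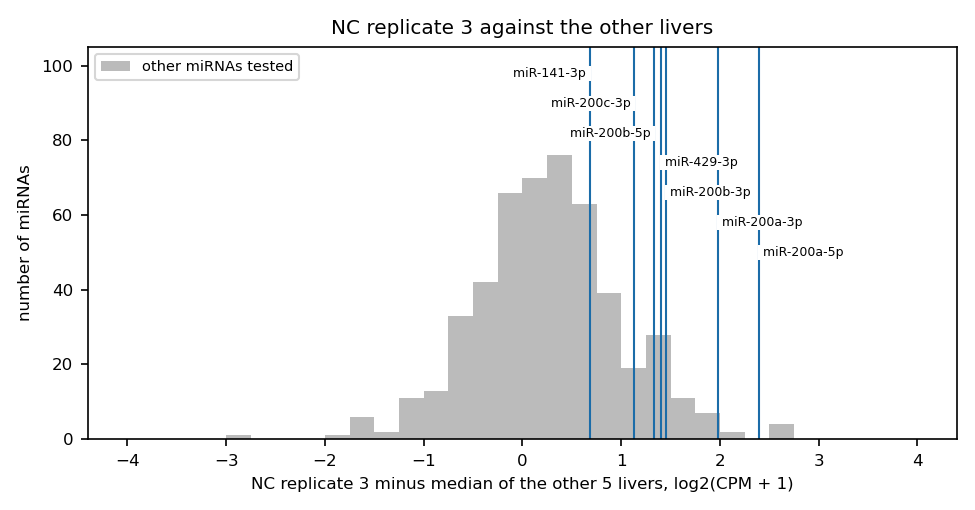
Histogram of the difference between NC replicate 3 and the median of the other 5 livers on the log2(CPM + 1) scale, for the miRNAs tested that are not members (grey), with a vertical line for each member. The members lie between 0.68 and 2.40, to the right of the overall median of 0.27.

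Other epithelial miRNAs were looked at in the same way. Of 8 names (miR-203-3p, miR-203-5p, miR-205-5p, miR-31-5p, miR-183-5p, miR-96-5p, miR-182-5p and miR-375-3p) 6 were tested, and NC replicate 3 was the highest liver for miR-96-5p and miR-375-3p alone, at 1.17 and 1.15 times the next highest. MiR-203-3p, the most abundant of them and known from stratified epithelia, was at 763 CPM in NC replicate 3 and between 1037 and 1511 CPM in the MAFLD livers. MiR-182-5p, the second, was at 284 CPM in NC replicate 3 and at 291 CPM in NC replicate 2. The median difference of NC replicate 3 from the other livers was 0.49 over the 6 on the log2(CPM + 1) scale. Between the diets 2 of the 6, miR-203-3p (log2 fold change 0.92 ± 0.33, SE) and miR-31-5p (0.96 ± 0.41, SE), were higher in MAFLD livers at an unadjusted p under 0.05, as were 13.4% of all miRNAs tested, and 0 passed the adjusted p in limma (0.208 and 0.238).

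Marker miRNAs of other cells are given beside the family because their levels differ between livers too. The pancreas list (miR-216a-5p, miR-216b-5p, miR-217-5p and miR-375-3p) summed to 1.57, 4.46 and 6.73 CPM under the normal diet and to 2.63, 2.99 and 9.77 CPM under the high-fat diet. In NC replicate 3 the defining miR-216a-5p and miR-216b-5p were at 0, as they were in NC replicate 2. MiR-216a-5p was read in MAFLD replicate 1 alone, so these zeros do not set NC replicate 3 apart. MiR-375-3p was highest in NC replicate 3, at 5.24 CPM, and miR-217-5p in NC replicate 2, at 2.55 CPM. The erythroid list (miR-451a, miR-144-3p, miR-486a-5p and miR-486b-5p, the last 2 with identical values) summed to 1042 CPM in NC replicate 3, between the 660 and 1337 CPM of the other NC livers. The stellate and mesenchymal list had its highest sum in NC replicate 3, at 30033 CPM, of which miR-143-3p gave 28509 CPM, against 12612 and 23806 CPM in the other NC livers and 19775 to 26950 CPM in MAFLD livers. Of its 5 miRNAs, 2 were highest in NC replicate 3 and the other 3, among them miR-199a-3p, in MAFLD replicate 1. The brain list summed to 366 CPM in NC replicate 1 and 575 CPM in NC replicate 2, where the family was lowest, and between 5.34 and 15.6 CPM elsewhere. NC replicate 3 was not the highest liver for the endothelial list (6587 CPM, led by miR-126a-3p), the immune list (247 CPM, led by miR-142a-5p) or the hepatocyte list (652214 CPM, of which miR-148a-3p gave 485207 CPM). Within the hepatocyte list, miR-122-5p was highest in NC replicate 3, at 85150 CPM and 1.21 times the next liver. Between the diets, 13.4% of all miRNAs tested were higher in MAFLD livers at an unadjusted p under 0.05 in limma, and 4.59% were lower. Higher at this p were 2 of 2 endothelial, 2 of 5 stellate and mesenchymal, 1 of 5 immune and 1 of 5 hepatocyte miRNAs. The 2 endothelial miRNAs, miR-126a-3p and miR-126a-5p, are strands of the same hairpin and not separate markers. Of the brain miRNAs 2 of 4 were lower, and 0 of 4 erythroid and 0 of 2 pancreas miRNAs had such a p. No miRNA of these lists passed the adjusted p in limma. The part of these cells in the levels of the family was not tested.

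The comparison of the diets asks whether the family differs between fatty and normal livers. With all 6 livers, none of the 7 members passed an adjusted p of 0.05 in limma on log2(CPM + 1) with Benjamini-Hochberg adjustment over all miRNAs tested, of which 0.2% passed. None passed an unadjusted p of 0.05 either, against 18% of all, and none had groups that did not overlap, against 19.4% of all. With edgeR and with DESeq2 on the recovered reads the number of members past either threshold was also 0. The log2 fold changes of MAFLD against NC were above 0 for 4 members and below 0 for 3, where 71.3% of all miRNAs tested were above 0. Their median was 0.066, while that of all miRNAs tested was 0.43.

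MiR-200a-3p averaged 259 ± 271 CPM under the normal diet and 196 ± 49.7 CPM under the high-fat diet (SD, n = 3 each). The log2 fold change was 0.070, with a 95% interval from -1.11 to 1.26 (adjusted p = 0.957, limma), above 0 although the mean CPM was lower, because the log scale gives NC replicate 3 less weight. MiR-200b-3p had 129 ± 91.4 and 121 ± 30.8 CPM (SD, n = 3 each) and a log2 fold change of 0.090 (interval -0.92 to 1.10). MiR-200c-3p had the largest value, 0.51 (interval -0.76 to 1.78, adjusted p = 0.653, limma), with 11.4 ± 8.37 CPM in NC and 16.8 ± 12.6 CPM in MAFLD livers (SD, n = 3 each). The remaining values were 0.066 for miR-200b-5p, -0.14 for miR-141-3p, -0.29 for miR-429-3p and -0.31 for miR-200a-5p. All 7 intervals held 0 and reached at least 0.76 from 0 on the log2 scale in each direction, so these livers neither show a difference nor show that the diets gave like levels.

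The NC livers were more spread than the MAFLD livers for most members. Limma uses a common variance for both groups, so its intervals alone do not show which group was more spread. For miR-200a-3p the larger part of the spread within groups came from the NC livers (SD 1.42 against 0.38 on the log2(CPM + 1) scale). For miR-200a-3p the coefficient of variation was 104% in NC and 25.4% in MAFLD livers, and for miR-200a-5p it was 108% and 37.1%. On the log2(CPM + 1) scale, 5 of the 7 members had a larger SD in NC than in MAFLD livers, and 67.7% of all miRNAs tested did so. The exceptions were miR-200c-3p and miR-141-3p, so the 5 are again the members of the chromosome 4 cluster. The median SD was 0.93 over the members and 0.66 over all miRNAs tested in NC livers, and 0.56 and 0.47 in MAFLD livers.

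Without NC replicate 3 the comparison looked different. All 7 members then had a log2 fold change above 0, with a median of 0.63, but the median of all 498 miRNAs tested was 0.66. The mean of miR-200a-3p was 103 CPM over NC replicates 1 and 2, and that of the MAFLD livers was 1.90 times as high. The log2 fold change was 0.89 (interval 0.21 to 1.57), with an adjusted p of 0.0528 in limma (0.0137 before adjustment). It was the only member with an unadjusted p under 0.05, and 30.1% of all miRNAs tested had such a p and were higher in MAFLD livers. MiR-200c-3p had 1.03 (interval -0.15 to 2.20) and miR-200b-3p 0.63 (interval -0.091 to 1.35). All MAFLD livers were above NC replicates 1 and 2 for miR-200a-3p, miR-200b-3p and miR-200c-3p, that is 3 of 7 members, where 43% of all miRNAs tested were. The share of the members was thus near that of all miRNAs. The value of miR-200a-3p also depended on the scaling. Median-ratio scaling, described below, of these remaining livers gave it 0.19 (interval -0.45 to 0.83, adjusted p = 0.739, limma). The median of the members was then -0.075, and that of all miRNAs tested was 0.11. This alternative was chosen after seeing the data.

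**Figure D4:**
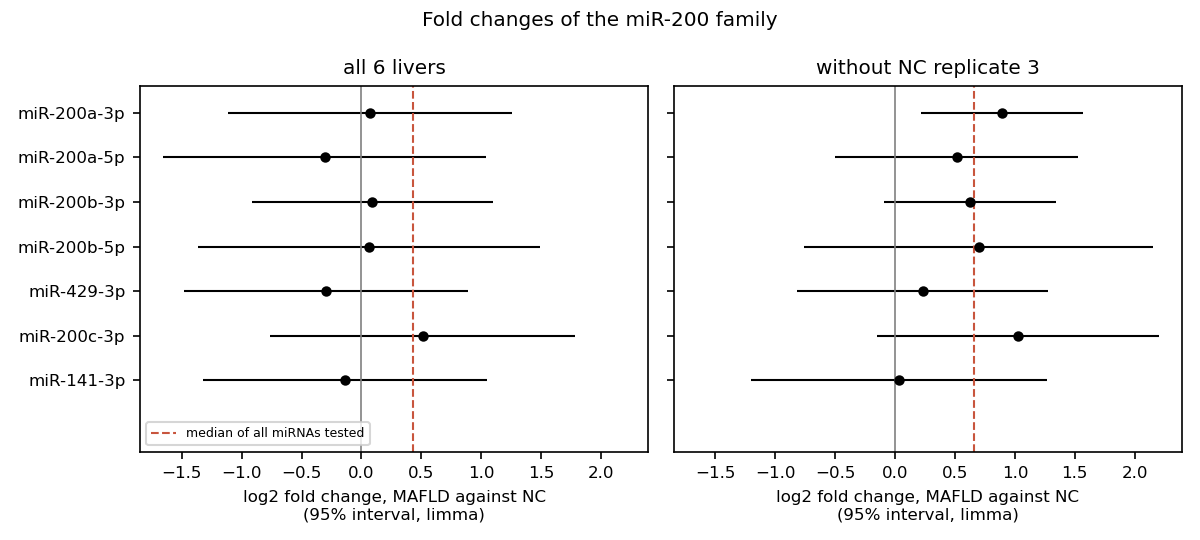
Log2 fold change of MAFLD against NC livers for the 7 members (points) with 95% limma intervals (bars), with all 6 livers (left) and without NC replicate 3 (right); the dashed line is the median of all miRNAs tested. The members move from a median of 0.066 to one of 0.63 when NC replicate 3 is left out, and the dashed line moves from 0.43 to 0.66.

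Leaving out either of the NC livers rich in brain miRNAs moved the median of the members the other way. Without NC replicate 1 the median log2 fold change of the members was -0.16, with 2 above 0 and 5 below 0. Without NC replicate 2 it was -0.37, with 1 above 0 and 6 below. The median of all miRNAs tested fell too, from 0.43 to 0.26 without NC replicate 1 and to 0.35 without NC replicate 2. Scaling mattered as well. With median-ratio scaling, which takes the median of all miRNAs tested from 0.43 to 0.044, 6 of the 7 members were below 0 and their median was -0.39. MiR-200c-3p stayed above 0, at 0.095. No direction can therefore be given for the family as a whole.

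**Figure D5:**
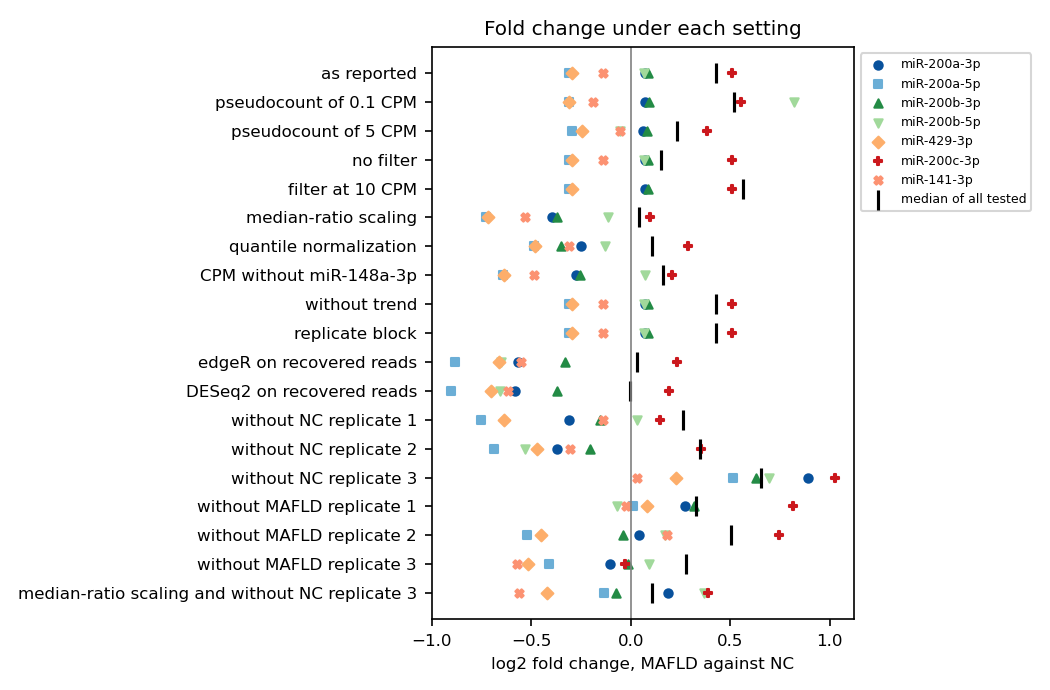
Log2 fold change of MAFLD against NC livers for each member (symbols) and the median of all miRNAs tested (black ticks) as reported and under each of 18 other settings, listed on the vertical axis. The median of the members lies to the left of the black tick in all 19 settings shown, miR-200c-3p lies to its right in 16 of them, and all 7 members are above 0 in 1 setting, without NC replicate 3. The settings refit the same livers, so these counts are not independent support. Without the trend and with the replicate block, both medians equal those reported.

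The miRNAs whose pattern over the 6 livers was most like the mean pattern of the family were miR-1193-3p, miR-7073-5p, miR-6927-3p, miR-133a-3p and miR-704. Likeness was the root mean square difference between log2(CPM + 1) values after each miRNA was centred on its mean, which was between 0.19 and 0.32 for these 5, between 0.17 and 0.52 for the members themselves, and 0.70 at the median of the 494 other miRNAs tested. All 5 were highest in NC replicate 3, which follows from the way they were chosen, because the mean pattern of the family peaks there. MiR-1193-3p and miR-6927-3p were at 3.74 CPM in that liver and at most at 1.30 CPM elsewhere. Their means reach the filter of 1 CPM only through that liver. The first 4 are scarce, between 0.375 and 7.48 CPM in any liver, and a likeness built on so few reads is a description only. MiR-704 gave 7.06, 4.46 and 15.7 CPM under the normal diet and 4.88, 8.11 and 6.52 CPM under the high-fat diet.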

How the data were processed

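Small RNA was sequenced in 6 libraries labelled as mouse liver. The authors deposited CPM values scaled to the reads on all listed miRNAs of a library. The submitters' processing notes name FastQC, cutadapt, Bowtie, edgeR and GRCm38, with no roles. Trimming settings, allowed mismatches, the treatment of reads that map to several miRNAs and the miRNA database release are not given in the sources used here. Modifications that block ligation were removed before library construction, so strands carrying them can be read too. All values (100%) were whole multiples, within 0.02, of the smallest value above 0 in their library, and these multiples were taken as reads.

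The diets were compared in R 4.3.3 by limma 3.58.1 (trend, two-sided) on log2(CPM + 1), a scale that understates the fold changes of scarce miRNAs, for miRNAs averaging 1 CPM or more. P-values were adjusted by Benjamini-Hochberg, with a threshold of 0.05. edgeR 4.0.16 and DESeq2 1.42.0 were run on the recovered reads. Other alternatives were pseudocounts of 0.1 and 5, no filter or one at 10 CPM, median-ratio or quantile scaling, CPM without miR-148a-3p, no trend, the replicate number as a block, and each library left out. Scripts were tested on simulated data. Shares have 95% Wilson intervals.

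The members, the marker lists and the tests were chosen with earlier results of these data known. The miRNAs named are the 7 members, other strands of their hairpins, up to 2 of the most abundant miRNAs of each list, the 5 nearest in pattern and miR-148a-3p. Others were named after their values were seen. Positions come from GENCODE M21 and RefSeq on GRCm38. The growth and treatment protocols attached to these samples describe human HepG2 cells, which conflicts with their labels of mouse liver. The labels were followed.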

Additional observations from a re-analysis of the deposited data

How the results depend on the processing

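No member passed the adjusted p of 0.05 in any of the 18 alternatives, and the adjusted p closest to it was 0.0528, for miR-200a-3p without NC replicate 3. No member kept its direction in every alternative. The sign stayed in 17 of 18 for miR-200c-3p, in 16 of 18 for miR-200a-5p and miR-429-3p, and in 15 of 17 for miR-141-3p. For miR-200a-3p it stayed in 10 of 18, for miR-200b-3p in 8 of 18 and for miR-200b-5p in 10 of 17. The alternatives refit the same livers. MiR-200a-3p, miR-200b-3p and miR-200b-5p went below 0 with median-ratio scaling (-0.39, -0.37 and -0.11), quantile normalization (-0.25, -0.35 and -0.13), edgeR (-0.57, -0.33 and -0.65) and DESeq2 (-0.58, -0.37 and -0.66). Without miR-148a-3p the first 2 went to -0.27 and -0.26, with a pseudocount of 5 miR-200b-5p went to -0.052, and when NC replicate 3 was left out of the fit with median-ratio scaling, an alternative chosen after seeing the data, miR-200b-3p went to -0.075. These scalings lower the median of all miRNAs (0.43) to between -0.0049 and 0.16. When 1 library was left out, the log2 fold change ran from -0.37 to 0.89 for miR-200a-3p, -0.75 to 0.51 for miR-200a-5p, -0.20 to 0.63 for miR-200b-3p, -0.53 to 0.70 for miR-200b-5p, -0.64 to 0.23 for miR-429-3p, -0.029 to 1.03 for miR-200c-3p and -0.57 to 0.18 for miR-141-3p, and from 0 to 1 members had an unadjusted p under 0.05.

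Over all miRNAs tested, the 1 past the adjusted p became 0 without the trend (74 at an unadjusted p under 0.05), 2 with median-ratio scaling, 2 once miR-148a-3p was taken out of the CPM, 5 with the replicate block, 11 without the filter, 28 with DESeq2, 45 under median-ratio scaling of the 5 livers that remain without NC replicate 3, and 0 to 128 when 1 library was left out. The 90 at an unadjusted p under 0.05 (67 higher, 23 lower) became 59 at 10 CPM and 36 to 178 when 1 library was left out, and had splits of 36 higher and 45 lower (median-ratio), 38 and 40 (quantile), 52 and 38 (CPM free of miR-148a-3p), 37 and 50 (edgeR) and 29 and 54 (DESeq2). The cause of these changes was not tested. Deviations of livers with the same replicate number had correlations of 0.012, -0.020 and -0.046. The labels do not say whether the numbers pair the mice, and the replicate block changed no call for a member. MiR-200b-5p and miR-141-3p were not tested at 10 CPM. The number of reads limits miR-200b-5p (0 to 6 per library) and miR-141-3p (6 to 14).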
